A study of Mus musculus with 12 samples.

Results

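The genes of antigen presentation by MHC class I molecules were followed in splenic CD8 T cells of mice that lack 3 linker histone genes. The set holds 31 genes, listed by their known part in the pathway and matched by symbol, out of 24421 genes in the authors' deposited table. All 31 had at least 1 read, and 29 carried an adjusted p-value. The 2 without one, H2-T3 and H2-M2, had 9 and 11 reads over all 4 libraries.

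Class I molecules are pairs of a heavy chain and β2-microglobulin that hold a short peptide on the surface of nearly every nucleated cell. The peptides are cut by the proteasome, carried into the endoplasmic reticulum by the TAP transporter, trimmed there and loaded with the help of tapasin, calreticulin and ERp57. CD8 T cells read the loaded molecules of other cells and carry their own, which also engage inhibitory receptors of natural killer and effector T cells. Interferons and the transactivator NLRC5 are the best known activators of these genes.

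The tested animals were cTKO (1 female and 1 male), a label that the series explains by loss of H1 linker histones, proteins that bind the nucleosome at the entry and exit of the DNA. They were set against WT animals (1 female and 1 male). All were labelled C57BL/6, with no age, and each sample was a flow cytometry sort of 500000 cells from spleen, from which polyadenylated RNA was sequenced with paired ends. The series also covers B cells and CD4 T cells, 12 samples in all, and those were not analysed here. The labels do not say which alleles, promoter or Cre line the cTKO animals carry. P-values rest on the spread between 2 animals a genotype, pooled in part across genes, and on read depth.

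The authors' deposited table gives the mean over all libraries, the fold change and its error, but no value per library. Reads per library, as whole numbers, were recovered from these values, which gave 1 solution for each of the 31 genes. For H2-T3, H2-M2 and Hfe, with a mean under 8, the mean alone was used. Recovery is less sure at high levels. Above a mean of 20000, only the class I genes of the set and genes of the lists below were tried. Of all genes with a mean of at least 9500, 72.0% (152 of 211) had 1 solution, a share that counts untried genes as not recovered. H2-K1, H2-D1, H2-Q7, B2m, Tapbp, Psmb8 and Pdia3 are at such levels, and for H2-K1 and H2-D1 several sets of reads returned the deposited values, among which the shrinkage of the dispersion chose. Recovered totals, which leave out genes without recovered reads, were 16027477 and 11242224 reads in the cTKO libraries and 18145684 and 12255746 in the WT libraries. Reads of Xist numbered 4871 and 28 for cTKO, larger library first, and 479 and 2 for WT, so that in each genotype the larger library matched the female animal. Size and sex of a library cannot be told apart. Hist1h1c, Hist1h1d and Hist1h1e had 0 reads in both cTKO libraries, against 41 and 56, 5 and 11, and 64 and 112 reads in WT, larger library first. The header gives no direction for the fold change. It is taken here as cTKO over WT, the reading under which the 3 linker histone genes are at 0 in cTKO; the opposite reading would turn every direction below. Levels are normalised read counts, that is recovered reads divided by the size factor of the library, and the larger library of a genotype is given first.

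Mouse class I heavy chain genes lie in tandem on chromosome 17 and resemble each other, so a read can match more than 1 of them. Because 4 of the 8 called genes are such neighbours, 60 bases from the start of the second coding exon, which encodes part of the peptide-binding domain, are shown for 5 of them in the reference genome (GRCm38, strand of the gene). Capitals mark bases that differ from H2-Q7.
H2-Q7 (chr17:35439452-35439511): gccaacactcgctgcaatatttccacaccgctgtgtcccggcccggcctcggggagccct
H2-Q6 (chr17:35425108-35425167): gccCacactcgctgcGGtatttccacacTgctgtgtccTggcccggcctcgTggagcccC
H2-Q10 (chr17:35470376-35470435): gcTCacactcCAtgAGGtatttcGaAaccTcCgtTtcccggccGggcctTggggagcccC
H2-K1 (chr17:33999944-34000003, minus strand): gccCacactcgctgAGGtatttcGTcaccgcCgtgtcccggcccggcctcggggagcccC
H2-D1 (chr17:35263379-35263438): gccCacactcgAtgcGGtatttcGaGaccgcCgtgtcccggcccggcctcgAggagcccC
H2-Q6 differed from H2-Q7 at 7 of these 60 bases, H2-K1 at 8, H2-D1 at 9 and H2-Q10 at 15. Over the whole coding sequence H2-Q6 and H2-Q7 were 95.4% identical, and H2-D1 and H2-K1 92.0%. Of all 100-base windows of the H2-Q7 transcript, 21.9% were found letter for letter in another gene, as were 14.2% for H2-T22, 10.8% for H2-Q6 and 7.28% for H2-T23. The share was 4.64% for H2-D1, 2.66% for H2-Q4, 2.06% for H2-Q10 and 0 for H2-K1. Shares were larger for 50-base windows, at 44.7% for H2-T22, 40.2% for H2-Q7, 32.0% for H2-Q6 and 28.8% for H2-T23. They were 24.3% for H2-Q4, most often shared with H2-Q6, 14.3% for H2-D1, 8.79% for H2-K1 and 8.03% for H2-Q10. How the authors' counting treated reads with several matches is not given in the sources used here, so the division of reads among H2-Q5, H2-Q6 and H2-Q7, and between H2-T22 and H2-T10, is uncertain. H2-Q8 and H2-Q9 were not matched in the table. Q-region genes also vary between mouse strains, and whether the animals shared 1 haplotype here was not tested.

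Of the 29 genes tested, 6 were higher in cTKO and 2 were lower at an adjusted p under 0.05 in the authors' deposited table. That is 27.6% called, beside a background of 13.4% of all 12972 genes tested; 20.7% of the class I genes were higher, beside 9.77% of all genes, and 6.9% were lower, beside 3.61%. Among genes with a mean of at least 1000, which 24 of the class I genes reach, 5 were higher, beside 5.8% of all 3980 such genes, and 2 were lower, beside 5.23%. The higher genes were H2-Q4, H2-Q6, H2-Q7 and H2-Q10, 4 neighbours in the Q region of the complex, and Nlrc5 and Fcgrt elsewhere in the genome. The lower genes were Tapbp and Cd1d1. The other 21 included both classical heavy chains, β2-microglobulin, both TAP subunits and every immunoproteasome gene. The median log2 fold change of the 29 was -0.07, against 0.04 over all genes tested and -0.21 over those with a mean of at least 1000.

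**Figure D1:**
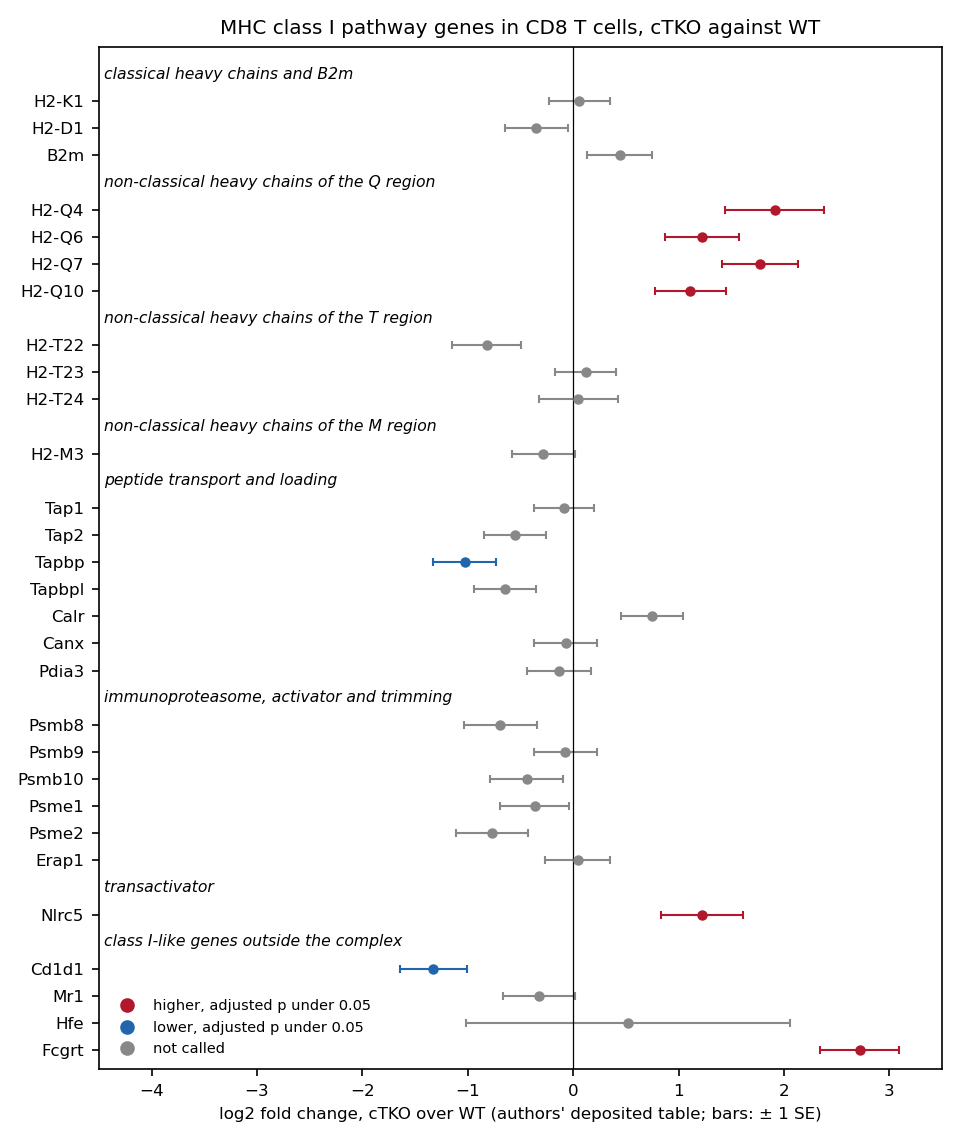
Log2 fold change of cTKO over WT in the authors' deposited table for the 29 class I pathway genes tested, grouped by role, with bars of 1 SE; red points are higher and blue points lower at an adjusted p under 0.05. The 4 Q-region genes, Nlrc5 and Fcgrt lie between 1.11 and 2.72, Tapbp at -1.03 and Cd1d1 at -1.33.

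H2-K1 and H2-D1 code for the classical heavy chains K and D, which present peptide to CD8 T cells. H2-K1 (chr17:33996012-34000619) had 85399 and 98656 normalised reads in cTKO and 94717 and 82020 in WT. Its groups overlapped, and the log2 fold change in the authors' deposited table was 0.06 (SE 0.29, adjusted p 0.924), with a 95% interval of -0.51 to 0.62. H2-D1 (chr17:35263094-35267497) had 69246 and 94053 normalised reads in cTKO and 108696 and 99536 in WT. The 2 cTKO libraries were below the 2 of WT, but the log2 change of -0.35 in the authors' deposited table did not pass (SE 0.30, adjusted p 0.483). B2m (chr2:122147687-122153082), which codes for β2-microglobulin, the light chain that all these heavy chains need, had 56735 and 69014 normalised reads in cTKO and 39084 and 53563 in WT. In cTKO both libraries exceeded both of WT, and the log2 change of 0.44 in the authors' deposited table did not pass either (SE 0.31, adjusted p 0.368). The larger library was the lower of its pair in both genotypes.

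The 4 Q-region genes, which code for non-classical heavy chains, all rose. H2-Q7 (chr17:35439140-35443773), a gene of the Qa-2 antigen, had 73469 and 49386 normalised reads in cTKO and 12739 and 23231 in WT. It was 3.42-fold higher in the authors' deposited table (log2 1.77, SE 0.36, adjusted p 2.83e-05), a call lost in limma without the larger cTKO library (log2 1.52, adjusted p 0.0895). H2-Q6 (chr17:35424850-35430055), a close relative at the neighbouring position, had 12331 and 10028 normalised reads in cTKO and 3360 and 6204 in WT. Its change in the authors' deposited table was 2.34-fold (log2 1.23, SE 0.35, adjusted p 0.00638), lost in limma without the larger cTKO library (log2 1.14, adjusted p 0.124) or the larger WT library (0.84, adjusted p 0.396). In both genes the smaller WT library was nearly 2 times the larger one, which is the widest gap within WT among these 4 genes; the ratio was 1.82 for H2-Q7 and 1.85 for H2-Q6.

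H2-Q4 (chr17:35379617-35384674), the heavy chain of the Qb-1 antigen, was far less abundant, with 1104 and 400 normalised reads in cTKO and 245 and 155 in WT. The 2 cTKO libraries were above the 2 of WT, though they differed 2.76-fold from each other. The authors' deposited table gave a change of 3.76-fold (log2 1.91, SE 0.47, adjusted p 0.000889), lost in limma without the larger cTKO library (log2 1.04, adjusted p 0.153) or the smaller WT library (1.44, adjusted p 0.0943). H2-Q10 (chr17:35470089-35474563), best known as a secreted class I protein made in the liver, had 1770 and 1793 normalised reads in cTKO and 1002 and 643 in WT. Its change was 2.16-fold in the authors' deposited table (log2 1.11, SE 0.33, adjusted p 0.0104), lost in limma without the larger cTKO (adjusted p 0.0649), the larger WT (0.0762) or the smaller WT library (log2 0.83, adjusted p 0.432). The 2 cTKO libraries were nearly equal for H2-Q10, so its spread lay within WT.

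**Figure D2:**
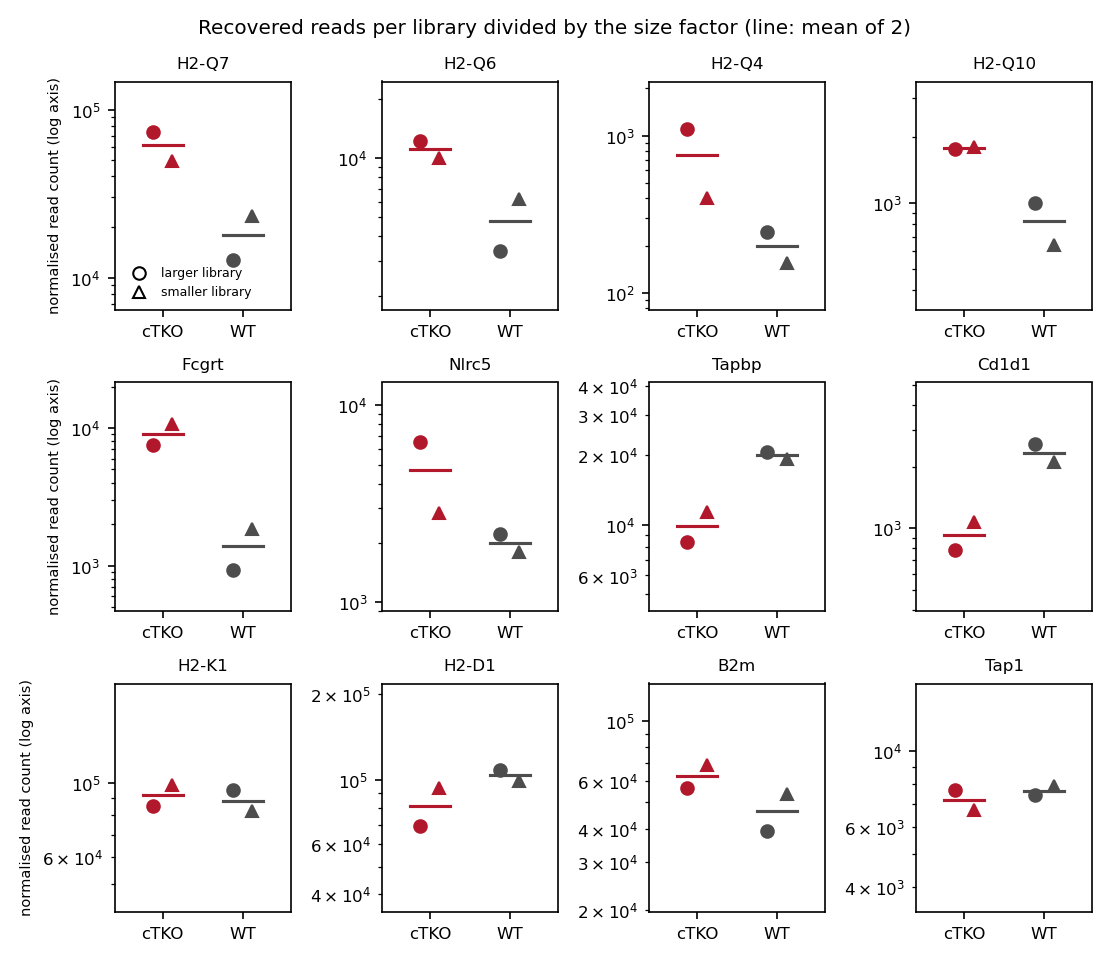
Normalised read count per library on a log axis for 12 class I pathway genes, cTKO left and WT right, circles for the larger and triangles for the smaller library, with a line at the mean of 2. In the 6 genes called higher both cTKO libraries were above those of WT, in Tapbp and Cd1d1 both lie below, and in H2-K1 and Tap1 the groups overlap.

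Summed over the 4 genes, which takes out any exchange of reads among them, the Q region gave 88673 and 61606 normalised reads in cTKO and 17345 and 30233 in WT, a ratio of the means of 3.16. H2-K1 and H2-D1 together gave 154644 and 192709 in cTKO and 203413 and 181557 in WT, and these groups overlapped. The Q region made up 34.8% and 23.05% of the counts of all 12 H2 genes in cTKO, against 7.44% and 13.5% in WT. Per transcript length, H2-Q7 stood at 0.915 and 0.532 of H2-K1 in cTKO and at 0.143 and 0.301 in WT. The ratio of H2-Q7 to H2-Q6 per transcript length was 8.16 and 6.74 in cTKO and 5.19 and 5.13 in WT. With 2 against 2 libraries, an exact two-sided permutation test cannot give a p below 0.333, so these shares and ratios stand as values. In sorted bulk RNA, more RNA per cell and more cells of a kind that express a gene cannot be told apart.

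The table holds 5 genes from the start of H2-Q4 to the end of H2-Q10, an interval of 94.9 kb (chr17:35379617-35474563), and all 5 were higher in the authors' deposited table. The 1 outside the set is H2-Q5, which shares 50-base windows with H2-Q7. It had 3577 and 2220 normalised reads in cTKO and 627 and 1338 in WT, a change of 2.95-fold in the authors' deposited table (log2 1.56, SE 0.40, adjusted p 0.00169). The nearest class I genes before the interval were not called in the authors' deposited table. H2-Q1 had a log2 change of -0.30 (SE 0.34, adjusted p 0.616), and H2-Q2, with a mean of 12.2, of 0.11 (SE 1.16, adjusted p 0.968). Past H2-Q10, up to the start of H2-T24, lie 31 genes that are not class I heavy chains. Of these, the authors' deposited table tested 23 and called 3 higher and 0 lower, beside 9.77% and 3.61% of all genes tested.

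**Figure D3:**
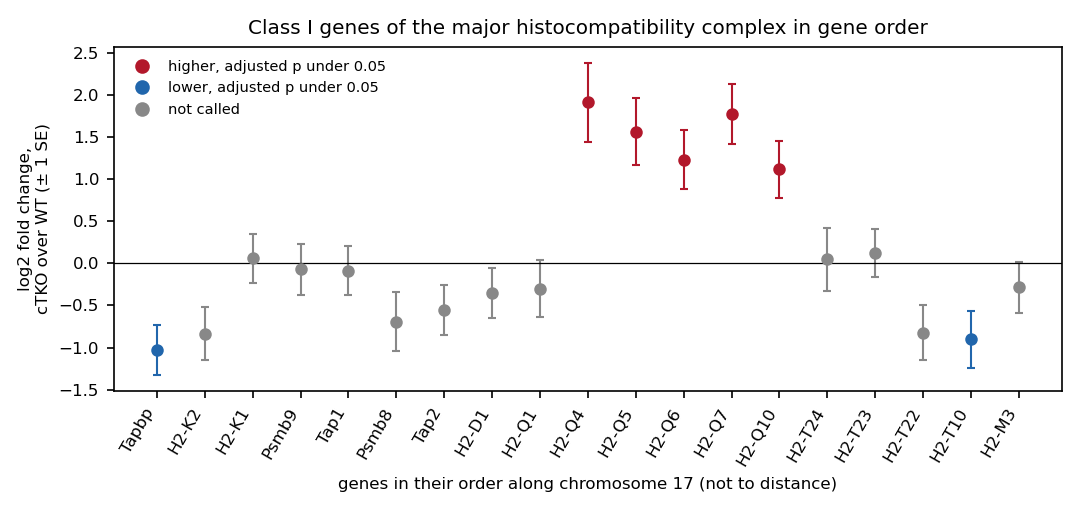
Log2 fold change of cTKO over WT in the authors' deposited table, with bars of 1 SE, for 19 class I pathway genes in their order along chromosome 17, evenly spaced; H2-Q2 and H2-Bl, with an SE above 1, are not drawn. The 5 genes from H2-Q4 to H2-Q10 lie between 1.11 and 1.91, and H2-D1, H2-Q1 and H2-T24 beside them lie between -0.35 and 0.05.

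None of the 4 tested genes of the T and M regions was called in the authors' deposited table. H2-T23, the heavy chain of Qa-1 that the NKG2A receptor binds, had 8213 and 9390 normalised reads in cTKO and 7651 and 8551 in WT. The groups overlapped, and the log2 change of 0.12 in the authors' deposited table did not pass (SE 0.29, adjusted p 0.833). H2-T24 had a log2 change of 0.05 in the authors' deposited table, with an SE of 0.37, an adjusted p of 0.955 and overlapping groups. H2-T22, a ligand of some γδ T cell receptors, had 610 and 781 normalised reads in cTKO and 1372 and 1084 in WT. In cTKO both libraries were under both of WT, with a log2 change of -0.82 in the authors' deposited table that missed the threshold (SE 0.33, adjusted p 0.0756). H2-T10, its near copy and no member of the set, was called lower in that table, with a log2 change of -0.90 (SE 0.33, adjusted p 0.0498), a call that limma on the recovered reads did not make (adjusted p 0.0794). H2-M3, which presents formylated peptides, had 1933 and 2395 normalised reads in cTKO and 2796 and 2465 in WT, a log2 change of -0.28 in the authors' deposited table (SE 0.30, adjusted p 0.595). H2-T3, the heavy chain of the thymus leukaemia antigen, had 1 and 1 reads in cTKO and 2 and 5 in WT. H2-M2 had 1 and 0 reads in cTKO and 4 and 6 in WT. Neither was tested in the authors' deposited table.

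Of the 7 genes of peptide transport and loading, 1 was called. Tapbp (chr17:33919478-33929290) codes for tapasin, which bridges empty class I molecules to the TAP transporter. It had 8368 and 11284 normalised reads in cTKO and 20769 and 19325 in WT. The 2 cTKO libraries were below the 2 of WT. It was 2.04-fold lower in the authors' deposited table (log2 -1.03, SE 0.30, adjusted p 0.00784). In limma fits that left out 1 library each, the call was lost without the larger cTKO library (log2 -0.83, adjusted p 0.198), the larger WT library (-0.99, 0.223) or the smaller WT library (-1.10, 0.121). Tapbpl, which codes for the tapasin-related protein TAPBPR, had 2438 and 3054 normalised reads in cTKO and 4152 and 4449 in WT. The groups did not overlap here either, but the log2 change of -0.65 in the authors' deposited table did not pass (SE 0.30, adjusted p 0.136).

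Tap1 and Tap2 code for the paired subunits of the peptide transporter. Tap1 had 7693 and 6758 normalised reads in cTKO and 7444 and 7896 in WT, and its groups overlapped (log2 change -0.09 by the authors' deposited table, SE 0.29, adjusted p 0.884). Tap2 had 5764 and 5744 normalised reads in cTKO and 7464 and 9443 in WT. In cTKO both libraries were under both of WT, with a log2 change of -0.55 in the authors' deposited table that did not pass (SE 0.29, adjusted p 0.211). Calr, the chaperone calreticulin, was the only gene of this group with both cTKO libraries above both WT libraries, at 8238 and 8648 normalised reads in cTKO and 4410 and 5625 in WT. Its log2 change of 0.75 missed the threshold in the authors' deposited table (SE 0.30, adjusted p 0.0709). The lectin chaperone Canx and the oxidoreductase Pdia3 (ERp57) overlapped between genotypes, with log2 changes of -0.07 and -0.14 in the authors' deposited table.

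None of the 6 genes of peptide generation was called; in the authors' deposited table their median log2 change was -0.40, with a range from -0.77 to 0.04. Psmb8, Psmb9 and Psmb10 code for the catalytic subunits LMP7, LMP2 and MECL-1, which replace the standard subunits in the immunoproteasome. Psmb8 had 8603 and 15412 normalised reads in cTKO and 21491 and 17285 in WT, and its log2 change was -0.69 in the authors' deposited table (SE 0.34, adjusted p 0.177). Psmb10 had 1965 and 3606 normalised reads in cTKO and 3642 and 3914 in WT, with a log2 change of -0.44 in the authors' deposited table (SE 0.35, adjusted p 0.44). For both genes the 2 cTKO libraries lay below the WT libraries, and the larger cTKO library was the lowest of all. Psmb9 had 3908 and 5133 normalised reads in cTKO and 4860 and 4655 in WT and overlapped between genotypes, with a log2 change of -0.07 in the authors' deposited table (SE 0.30, adjusted p 0.908).

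Psme1 and Psme2 code for the α and β subunits of the PA28 activator, which opens the proteasome and is raised by interferon γ. Psme2 had 3245 and 5798 normalised reads in cTKO and 8280 and 7163 in WT, with no overlap and a log2 change of -0.77 in the authors' deposited table that did not pass (SE 0.34, adjusted p 0.12). Psme1 overlapped between genotypes at 3480 and 5517 in cTKO and 5286 and 6305 in WT, with a log2 change of -0.37 in the authors' deposited table (SE 0.33, adjusted p 0.509). Erap1, which trims peptides in the endoplasmic reticulum, also overlapped, with a log2 change of 0.04 in the authors' deposited table (SE 0.31, adjusted p 0.949). In Psmb8, Psmb9, Psmb10, Psme1 and Psme2 alike, the larger cTKO library was the lowest of the 4.

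Each immunoproteasome subunit was also set against the standard subunit it replaces, per transcript length within a library. The ratio of Psmb8 to Psmb5 was 2.99 and 3.43 in cTKO and 5.56 and 4.33 in WT. The ratio of Psmb10 to Psmb7 was 2.35 and 3.10 in cTKO and 5.35 and 4.00 in WT. The ratio of Psmb9 to Psmb6 went the other way, at 1.18 and 0.827 in cTKO and 0.387 and 0.623 in WT. None of the 3 ratios overlapped between genotypes. Psmb6 itself had 1955 and 3662 normalised reads in cTKO and 7404 and 4406 in WT and was called lower in the authors' deposited table (log2 -1.07, SE 0.38, adjusted p 0.0388).

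**Figure D4:**
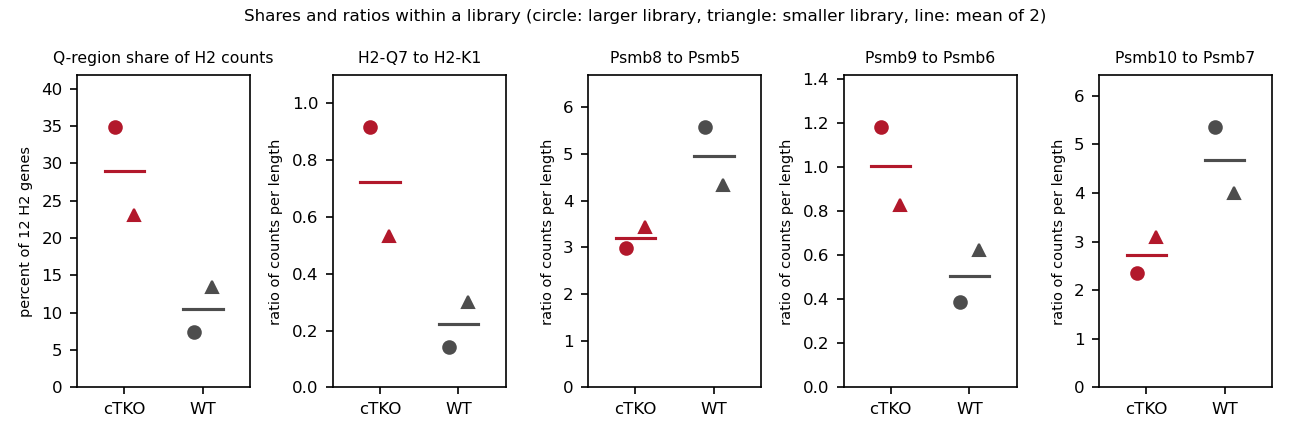
The Q-region share of the counts of 12 H2 genes in percent, and the ratios per transcript length of H2-Q7 to H2-K1 and of each immunoproteasome subunit to the standard subunit it replaces, per library on axes from 0. The Q-region share lies at 34.8% and 23.05% in cTKO and at 7.44% and 13.5% in WT; the Psmb8 and Psmb10 ratios are lower in cTKO and the Psmb9 ratio is higher.

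Nlrc5 (chr8:94434335-94527272) codes for the transactivator that drives class I heavy chain, B2m and Tap1 promoters. It had 6536 and 2831 normalised reads in cTKO and 2222 and 1797 in WT. It was 2.33-fold higher in the authors' deposited table (log2 1.22, SE 0.39, adjusted p 0.0182), and the 2 cTKO libraries differed 2.31-fold from each other. A fit by limma on the recovered reads called 5 class I genes higher, beside 9.24% of all genes, and 2 lower, beside 2.63%; Nlrc5 was not among them (adjusted p 0.0686), and it was also lost without the larger cTKO (log2 0.50, adjusted p 0.304), the larger WT (1.26, adjusted p 0.129) or the smaller WT library (0.95, adjusted p 0.291).

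Of the 4 class I-like genes outside the complex, 1 rose and 1 fell. Fcgrt (chr7:45092993-45103822) codes for the heavy chain of the neonatal Fc receptor, which pairs with β2-microglobulin and recycles antibody and albumin rather than presenting peptide. It had 7529 and 10715 normalised reads in cTKO and 927 and 1845 in WT. It was 6.58-fold higher in the authors' deposited table (log2 2.72, SE 0.37, adjusted p 3.23e-11), the widest change among the 29 genes tested, and was called without any 1 library in limma. Cd1d1 (chr3:86995834-87012358) codes for the CD1d chain that presents lipids to natural killer T cells. It had 787 and 1076 normalised reads in cTKO and 2568 and 2099 in WT, and was 2.51-fold lower in the authors' deposited table (log2 -1.33, SE 0.32, adjusted p 0.000765), a call lost in limma without the larger WT library (log2 -1.19, adjusted p 0.223) or the smaller WT library (-1.48, adjusted p 0.0642). Mr1, which presents vitamin B metabolites to mucosal-associated invariant T cells, had 374 and 420 normalised reads in cTKO and 529 and 463 in WT, a log2 change of -0.32 in the authors' deposited table that did not pass (SE 0.34, adjusted p 0.587). Hfe, the iron regulator, had only 10 and 6 reads in cTKO and 9 and 3 in WT.

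Levels between genes were compared as normalised reads per kilobase of transcript. In cTKO the order was led by B2m (73110 ± 10096), H2-K1 (56842 ± 5790), H2-Q7 (40333 ± 11181) and H2-D1 (38844 ± 8345; SD, n = 2 each). In WT it was led by H2-K1 (54582 ± 5545), B2m (53864 ± 11905) and H2-D1 (49532 ± 3081), followed at a distance by Psmb8 (11909 ± 1827) and H2-Q7 (11809 ± 4872; SD, n = 2 each). H2-Q7 and H2-D1 in cTKO, and H2-K1 and B2m in WT, differed by less than the SD of either. Fcgrt ranked 8 of 31 in cTKO and 21 of 31 in WT. H2-T3, H2-M2 and Hfe held the last 3 ranks in both genotypes. All 31 genes together took 3.01% and 3.17% of the recovered reads in cTKO and 2.60% and 2.75% in WT. The recovered reads leave out the untried genes with a mean above 20000.

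Over the 29 tested genes, 9 had both cTKO libraries above both WT libraries, which is 31.03%, beside 31.3% of all tested genes with recovered reads and 17.9% of those with a mean of at least 1000. In 11 genes, 37.9%, both cTKO libraries were below those of WT, beside 28.3% of all genes and 42.1% of those with a mean of at least 1000. These shares were not tested against each other.

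Promoter sequence of the members was read from RefSeq (GRCm38.p6), where 26 of the 31 had an entry of 250 bases before and 50 after the start. Class I promoters are known for an enhancer A that binds NF-κB, an interferon-stimulated response element, and an SXY module whose X2 box takes part in NLRC5 action. The bases upstream of the start are shown for 4 genes whose levels behaved differently, with capitals for enhancer A (GGGG, ATT and CCC in a row), the response element core (GAAA, any 2 bases, GAAA) and the X2 core (TGACGC), each on either strand. H2-D1 and B2m were not called, and H2-Q6 and H2-Q7 were higher.
H2-D1 (chr17:35262894-35263093): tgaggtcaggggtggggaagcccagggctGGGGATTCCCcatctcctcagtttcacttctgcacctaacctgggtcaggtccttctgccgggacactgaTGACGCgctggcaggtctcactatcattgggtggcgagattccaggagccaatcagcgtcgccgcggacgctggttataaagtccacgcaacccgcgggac
H2-Q6 (chr17:35424650-35424849): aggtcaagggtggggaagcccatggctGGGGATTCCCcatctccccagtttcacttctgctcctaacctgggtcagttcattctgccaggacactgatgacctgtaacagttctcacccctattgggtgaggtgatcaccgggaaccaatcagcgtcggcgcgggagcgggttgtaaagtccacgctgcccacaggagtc
H2-Q7 (chr17:35438955-35439139): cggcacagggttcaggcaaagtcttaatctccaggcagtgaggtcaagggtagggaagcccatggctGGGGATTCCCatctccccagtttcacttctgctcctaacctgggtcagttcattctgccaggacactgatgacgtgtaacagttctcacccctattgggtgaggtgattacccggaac
B2m (chr2:122147487-122147686): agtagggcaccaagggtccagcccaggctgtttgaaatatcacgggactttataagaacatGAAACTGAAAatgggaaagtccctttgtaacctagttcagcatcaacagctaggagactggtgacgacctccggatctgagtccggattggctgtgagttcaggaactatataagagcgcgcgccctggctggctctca
Enhancer A was found in H2-D1, H2-K1, H2-Q6 and H2-Q7, which is 15.4% of the 26 members and 0.126% of 27025 genes with a promoter. It stood in 2 of the genes called higher and in 2 that were not called. The X2 core was found in 23.1% of members and 8.37% of all genes. It stood in H2-Q4, called higher, and in H2-D1, H2-K1, H2-M3, Pdia3 and Psme2, which were not called. The response element core was found in 19.2% of members and 3.99% of all genes, and the Y box core CCAAT in 61.5% and 41.1%. The STAT site TTCNNNGAA was found in 7.69% of members and 9.55% of all genes. Both strands were searched, each motif on its own, so matches may overlap. A match describes these letters alone. An element written with other letters was not counted, so a missing match does not show that the element is missing.

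The other class I and class I-like genes, a list of 31 symbols of which 25 were in the table and 9 were tested, held 1 higher and 2 lower genes in the authors' deposited table. These were H2-Q5, H2-T10 and Cd1d2, the copy of Cd1d1, which had 51.4 and 59.6 normalised reads in cTKO and 206 and 144 in WT (log2 change -1.66 by the authors' deposited table, SE 0.49, adjusted p 0.00799). The median log2 fold change of the 9 was -0.05. For this list and the next ones, the background is 9.77% higher and 3.61% lower over all genes tested. Of 18 standard proteasome and activator genes tested, Psmb6 was lower and Psme4, the PA200 activator, was higher in the authors' deposited table (log2 1.09, SE 0.37, adjusted p 0.0302), neither of them by limma (adjusted p 0.0645 and 0.0651); the median log2 change of the 18 was -0.30. Of 22 peptidase and folding genes tested, 1 was higher, the intramembrane protease Sppl2a (log2 change 1.66 by the authors' deposited table, SE 0.46, adjusted p 0.0041), and none was lower; their median log2 change was 0.08.

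Of 35 tested regulators of class I transcription, 2 were higher and 3 lower in the authors' deposited table, a share near the 13.4% of all genes called, with a median log2 change of -0.34. Ifng, which codes for interferon γ, had 203 and 209 normalised reads in cTKO and 28.0 and 34.6 in WT, a log2 change of 2.72 in the authors' deposited table (SE 0.49, adjusted p 9.04e-07). Prdm1, which codes for the repressor Blimp-1, had 1313 and 682 in cTKO and 76.6 and 64.7 in WT, a log2 change of 3.82 in the authors' deposited table (SE 0.41, adjusted p 2.29e-18). Ifngr2, a chain of the interferon γ receptor, was lower, at 61.3 and 180 normalised reads in cTKO and 909 and 785 in WT, a log2 change of -2.82 in the authors' deposited table (SE 0.46, adjusted p 3.78e-08). Irf9, which helps carry the interferon signal to the nucleus, was also lower, with a log2 change of -0.88 by the authors' deposited table (adjusted p 0.0496), and was not called by limma (adjusted p 0.0865). Irf1, Rfx5 and Rela were not called.

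Of 17 tested genes on a list of class I receptors and related receptors, 6 were higher and none was lower in the authors' deposited table. That stands beside 9.77% and 3.61% of all genes tested. The median log2 fold change of the 17 was 0.74. Klrc1, the NKG2A chain whose ligand is H2-T23, had 7079 and 6642 normalised reads in cTKO and 897 and 656 in WT, a log2 change of 3.14 in the authors' deposited table (SE 0.31, adjusted p 7.44e-22). Klra3, a Ly49 receptor, had 767 and 1056 in cTKO and 91.4 and 102 in WT. Klra8, Ly49H, had 171 and 93.2 in cTKO and 2.47 and 3.46 in WT. Klrc2 was the fourth by p, and Lilrb4a and Cd160 were the others. The class II presentation list went the other way, with 5 lower and 1 higher of 10 tested in the authors' deposited table and a median log2 change of -1.41. H2-DMa had 404 and 549 normalised reads in cTKO and 1723 and 1848 in WT, a log2 change of -1.91 in the authors' deposited table (SE 0.32, adjusted p 1.72e-07).

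Markers were checked against the CD8 T cell label. None of the 8 CD8 T cell markers was called, and they summed to 94599 and 138202 normalised reads in cTKO and 158851 and 147581 in WT. Cd4, Ms4a1, Pax5, Ebf1, Cd14 and Adgre1 each had fewer than 10 normalised reads in every library, but other markers on their lists had more. The CD4 T cell list summed to 149 and 73.3 in cTKO and 90.6 and 91.2 in WT, with Zbtb7b higher in the authors' deposited table, at 91.1 and 42.2 in cTKO and 12.4 and 12.7 in WT. Of 6 natural killer cell markers, 4 were higher (Eomes, Klrb1c, Tyrobp and Klra8) and 1 was lower (Fcer1g) in the authors' deposited table. Over all genes tested, 9.77% were higher and 3.61% lower. The 6 natural killer cell markers summed to 6649 and 6169 in cTKO and 1154 and 1555 in WT. Eomes alone gave most of that sum, with 4757 and 4719 in cTKO and 902 and 1336 in WT. Ncr1, the defining receptor of natural killer cells, had 18.2 and 1.24 normalised reads in cTKO and 1.65 and 4.62 in WT. The B cell list summed to 944 and 272 in cTKO and 1548 and 1132 in WT. On it, Cd79b was lower, at 146 and 180 in cTKO and 1327 and 880 in WT. Cd22 was not called, at 748 and 47.2 in cTKO and 171 and 151 in WT. The myeloid and dendritic list summed to 500 and 241 in cTKO and 142 and 120 in WT. Its member Itgam was higher, at 359 and 171 in cTKO and 28.0 and 34.6 in WT. The part of these markers in the class I results was not tested.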

How the data were processed

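STAR and DESeq2 were used, with the builds mm10 and GRCm38.p6, per the submitters' processing notes; for versions, annotation, counting and strand handling no source used here has an entry. The mean normalised count over all 4 libraries is a signal the authors deposited, per the file headers. Likewise deposited by the authors are the log2 change, its standard error, the test score (fold change over standard error) and the p-value and adjusted p-value. Calls are the authors' at an adjusted p under 0.05, with no adjusted p for genes with a mean under 3.45.

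Whole reads per library were worked back for 18088 of 18153 genes (99.6%). Genes with a mean above 8 were fitted by a 2-group negative binomial model. Their reads were the only 4 whole numbers returning the deposited mean, fold change and standard error (largest fold change error 3.23e-09 on the log2 scale). Where this failed at low levels, the mean was used with a genotype held at no reads. Up to a mean of 8, reads were solved from the mean alone. The deposited fold change and standard error did not enter there, which holds for H2-T3, H2-M2, Hfe and Hist1h1d. From a mean of 9500, the shrinkage of the dispersion chose among solutions. Genes with a mean above 20000 were tried only if they were members or on a list. Tested on simulated reads, 27 of 28 members with a mean above 8 and 300 of 300 other genes had 1 solution, which in every case was the simulated one. The simulated H2-D1 had 2 solutions. The 300 other genes were drawn from genes with a mean below 9500. The simulation used the same fit, size factors and dispersion trend as the recovery, so it does not test these. Size factors were 1.207396 and 0.804969 (cTKO) and 1.214423 and 0.866028 (WT). The precision of single genes is limited by 2 animals a genotype and, for genes with few reads such as Hfe (SE 1.53), also by depth.

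limma 3.58.1 (R 4.3.3) was fitted to log2((reads + 0.5)/size factor), with trend, over 12907 genes with an adjusted p and recovered reads. A planned fit by edgeR was not run, since the reads were recovered from summary values; the count model is the authors' own. Lengths, shared windows and coding identity come from GENCODE transcripts on GRCm38, positions and promoters from RefSeq on GRCm38.p6 (31 of 31 members placed). No other columns of per-sample values exist in the table (0).

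The members and lists were chosen with earlier results of these data known. All 31 members are accounted for. Values per library are given for called members and for the main genes of each role, and from each list up to 4 called genes per direction with the smallest p; H2-T10, Irf9, H2-Q1, H2-Q2, Irf1, Rfx5 and Rela were named after their values were seen. Values of some genes on the lists are not reported here.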

Additional observations from a re-analysis of the deposited data

How the results depend on the processing

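Of the 29 class I genes tested, 8 were called by the authors, and 6 to 9 under other filters, thresholds and fits that kept all libraries (6 at an adjusted p under 0.01, 9 after re-centring, 7 by limma with the authors' size factors or with TMM factors, computed by code of the same rule). Among the 8 called genes, H2-Q10 and Nlrc5 were lost at 0.01 and Nlrc5 by limma (adjusted p 0.0686, or 0.0709 with TMM factors). With sex as a second term in limma, chosen after seeing the data, 8 class I genes and 2176 of all genes were called. Re-centring moved every change by 0.10, which brought Calr past the threshold (0.85, adjusted p 0.0328) and turned the sign of Tap1 (0.015), Psmb9 (0.027) and Canx (0.030), none of them called. Over all genes, the 1736 called genes (1268 higher, 468 lower) became 1054 (824 and 230) at 0.01. Without the 4 H2 genes that share 5% or more of their 100-base windows, 6 called members were left.

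Leaving out 1 library at a time in limma, where the lone library is assumed to vary like the other group, gave 2 to 13 called members (1 to 6 higher, 0 to 7 lower): 2 without the larger cTKO library, 13 without the smaller cTKO library and 3 without either WT library. Over all genes it gave 759 to 3909 calls (538 to 2261 higher, 117 to 1648 lower). Fcgrt was called in all 4 of these fits (2.28 to 3.28) and H2-Q7 in 3 (1.37 to 2.24), failing without the larger cTKO library (adjusted p 0.0895). H2-Q4 ranged from 1.04 to 2.50 and H2-Q6 from 0.84 to 1.73, each lost in 2 fits: H2-Q4 without the larger cTKO or the smaller WT library, H2-Q6 without the larger cTKO or the larger WT library. Cd1d1 (-1.56 to -1.11) was lost without either WT library. H2-Q10 (0.83 to 1.47), Nlrc5 (0.50 to 1.71) and Tapbp (-1.26 to -0.83) were called in the fit without the smaller cTKO library alone. The sign turned in H2-K1 (-0.046 to 0.16), H2-T24 (-0.25 to 0.38), Tap1 (-0.18 to 0.0050), Psmb9 (-0.28 to 0.11), Erap1 (-0.17 to 0.24), Canx (-0.21 to 0.076) and Pdia3 (-0.36 to 0.063), none of them called. The lists gave 0 to 6 calls for other class I genes, 0 to 6 for the standard proteasome, 0 to 4 for peptidases, 3 to 8 for regulators, 5 to 10 for receptors, 4 to 6 for class II and 2 to 3 for the linker histones.

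Of the 2 calls in the standard proteasome list, 1 was left with no filter or after re-centring and 0 at 0.01 or by limma with either scaling; the peptidase list gave 3 after re-centring, and the 5 calls among regulators became 3 after re-centring, at 0.01, at 2-fold or more, and in limma with either scaling or with sex as a term. The cause was not tested. Per coding length, WT levels were 79827 for H2-K1, 129757 for B2m and 17949 for H2-Q7 per kb, so that B2m came before H2-K1. On the gene's own strand, the response element core was found in 1 member, against 5 on both. The edgeR fit was not run. No paired analysis was possible because the genotypes share no replicate numbers in the labels; the fit with sex as a second term pairs the libraries by sex instead.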
